A study of Mus musculus with 54 samples.

Results

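Il5ra, Il2ra, Csf2ra and Csf2rb encode subunits of cytokine receptors, and the regions annotated to these 4 genes by name were followed through every processed table of a mouse B-cell progenitor study. The accessibility table held 10 of their regions out of 4983 regions near 1787 genes. Of 3764 regions with histone data 7 were theirs, and of 1172 Ebf1-bound regions 3. In 230-238 cells, an Abelson-transformed progenitor B-cell line, 32 of 65093 accessible regions carried one of the 4 names, and 41 of 69898 PLAC-seq interactions had an end on one of them. The Fli1 list held 18 of their peaks out of 27261 and the IKZF1 list 9 of 5741.

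The study labelled 54 samples. Fetal liver cells of strain C57BL6/J were E2A-KO, Ebf1-KO or Wt, are labelled pro-B cells, and were all expanded on OP9 stromal cells in medium with interleukin-7 and the ligands of KIT and FLT3. A further set was Ebf1-KO cells transduced with the vector pMiG-Ebf1ER, an Ebf1 fused to an oestrogen receptor part, and treated with 4-hydroxytamoxifen (4OHT) for 0, 6, 24 or 72 h. No 4OHT series in cells without Ebf1ER was used here, and the 4OHT columns are named as GFP-positive cells. The age of the fetuses is not given in the sources used here. The 230-238 culture is a single transformed line, grown in a medium for which the labels list no cytokine.

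ATAC-seq reads open chromatin by transposase insertion. ChIP-seq and CUT&RUN read a histone mark or a bound protein, and PLAC-seq reads contacts between places marked by H3K4me3 and other DNA. Every group of every region table is 1 column, either a pool of libraries or a single library, so no spread between replicates could be measured and no test across samples was made. Intervals below are exact 95% intervals on the tags behind a value and cover counting error only. The libraries ranged from 24557525 tags (H3K27ac, Wt) to 196071042 tags (H3K4me3, Ebf1-KO). By its name the Wt column of the accessibility table joins 6 libraries, while 3 Wt ATAC samples are labelled. That name also gives a size set to 180, which the name of the E2A-KO column does not. The effect of this setting on the ratios of E2A-KO to Wt was not tested. The antibody label of the Wt EP300 sample names PolII with a question mark.

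Cytokine receptors of this class pair a ligand-binding chain with a signalling chain and act through Janus kinases and STAT proteins. Il5ra encodes the ligand-binding chain of the interleukin-5 receptor, known from eosinophils and B-1 cells. Csf2ra encodes the ligand-binding chain of the GM-CSF receptor, and Csf2rb the common beta chain that the interleukin-5, GM-CSF and interleukin-3 receptors share. Il2ra encodes CD25, the alpha chain of the high-affinity interleukin-2 receptor, known on activated and regulatory T cells and, in the mouse, on pre-B cells. E2A and Ebf1 are transcription factors that specify the B lineage, and Ebf1 acts upstream of Pax5.

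RefSeq promoter windows of GRCm38.p6 matched 3 of the 4 genes by symbol, and Csf2rb is named only. The 250 bases before the start are shown for Il5ra and Il2ra because each lies inside an accessible region, and at Il5ra the region is the one that differed most between E2A-KO and Wt cells. The Il5ra window is chr6:106749038-106749287 on the minus strand and the Il2ra window chr2:11642542-11642791 on the plus strand, each printed 5′ to 3′. Capitals mark E-boxes, the letters CANNTG that E proteins such as E2A can bind.
Il5ra: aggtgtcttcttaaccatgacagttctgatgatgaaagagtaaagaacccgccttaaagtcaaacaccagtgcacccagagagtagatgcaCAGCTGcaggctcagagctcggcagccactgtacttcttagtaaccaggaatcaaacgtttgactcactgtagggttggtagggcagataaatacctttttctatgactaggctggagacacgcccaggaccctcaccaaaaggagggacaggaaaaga
Il2ra: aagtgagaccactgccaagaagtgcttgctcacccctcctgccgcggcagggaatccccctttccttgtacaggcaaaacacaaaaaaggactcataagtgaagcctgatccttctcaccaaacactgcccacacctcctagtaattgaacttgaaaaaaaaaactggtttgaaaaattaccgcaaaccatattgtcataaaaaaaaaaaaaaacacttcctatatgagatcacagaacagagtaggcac

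The Il5ra window held 1 E-box, of the form CAGCTG, beginning at position -159 from the start. CANNTG occurred in 66.2% of all 32841 RefSeq windows of this length and CAGCTG in 13% of them, counting both strands. The Il2ra window held no E-box. Neither window held the Ebf1 core letters CCCNNGGG, which 11.8% of the windows hold. The ETS core GGAA, the letters read by Fli1 and its relatives, was found 2 times in the Il5ra window and 3 times in the Il2ra window, on either strand, and in 93.5% of all windows. The Ikaros core GGGAA, which contains GGAA, was found 1 time at Il2ra and 0 times at Il5ra, and in 56.2% of windows. These matches describe letters and not binding.

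The first comparison asks how accessibility near genes enriched in Wt differs in cells without E2A. Of the 10 regions, 6 were at least 2-fold lower in E2A-KO than in Wt cells on the log2(value + 1) scale and 0 were at least 2-fold higher. Over all 4983 regions 37.9% were at least 2-fold lower and 0.983% at least 2-fold higher. All 4983 are regions of the 230-238 list, with the same end and a start within 1 base, so the tables read fetal liver signal over regions found in the line. By the table's name their genes were selected as enriched in Wt, so lower signal in knockout cells is not independent evidence of direction. With TMM scaling, which centres the bulk of regions on no change, 3 of the 10 were at least 2-fold lower, against 15.1% of all regions. The median log2 ratio was -1.12 over the 10 regions and -0.76 over all regions, which is a general shift against which single regions are also given. Values are tags in the region per 10000000 tags of the library.

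The Il5ra promoter region, chr6:106748844-106749506 in mm10, had 2.56 tags (95% interval 1.61 to 3.88) in E2A-KO cells and 143.58 tags (138 to 149.7) in Wt cells. Its log2 ratio of -5.34 was the lowest of all 4983 regions, and it stood at -4.58 relative to the median region. Of the 70 regions with a Wt level at least as high as this one, the lowest E2A-KO level among the others was 5.36 tags and their median 87.1 tags. The region 1.4 kb upstream of the Il5ra start, chr6:106750079-106750775 and annotated as intergenic, had 3.61 tags in E2A-KO cells and 38.43 tags in Wt cells, a 10.6-fold lower level (7.41 to 15.8). Its log2 ratio of -3.10 on the log2(value + 1) scale ranked 105th from the lowest. Between them lies a smaller promoter region 0.7 kb upstream, chr6:106749560-106749976, with 3.50 tags in E2A-KO cells and 9.69 tags in Wt cells. That difference was 2.77-fold (1.86 to 4.25). The log2 ratio of -1.25 was 0.49 below the median log2 ratio, and with TMM scaling it was -0.48 and no longer reached 2-fold.

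Il2ra has 2 regions in the table. The upstream one, 12.9 kb before the start at chr2:11629438-11630292 and intergenic, had 2.56 tags in E2A-KO cells and 28.61 tags in Wt cells, which is 11.2-fold lower (7.27 to 18.0). The other, in intron 1 at chr2:11672168-11672488, had 3.61 tags in E2A-KO cells and 6.11 tags in Wt cells. Its log2 ratio was -0.63 by library totals and 0.12 with TMM scaling, so its direction rests on the scaling.

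The Csf2ra region in intron 1, chr19:61226880-61228126, had the most tags of the 10 in both groups, with 126.50 tags (119 to 134) in E2A-KO cells and 185.85 tags (179 to 193) in Wt cells. Its ratio was 1.47-fold lower (1.37 to 1.58), and its log2 ratio of -0.55 turned to 0.35 with TMM scaling. The Csf2ra region 6.3 kb upstream, chr19:61234562-61234966, had 3.03 tags in E2A-KO cells and 8.19 tags in Wt cells, with a log2 ratio of -1.19 that became -0.44 with TMM scaling.

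All 3 Csf2rb regions lie in intron 1 and had low signal in both groups. The first, chr15:78331106-78331463, had 2.45 tags in E2A-KO cells and 3.77 tags in Wt cells. The second, chr15:78331981-78332259, had 1.75 tags in E2A-KO cells and 2.15 tags in Wt cells. For both, the interval of the ratio included 1, and TMM scaling turned the log2 ratio from below 0 to 0.21 and 0.40. The third, chr15:78333047-78333250, had 1.05 tags in E2A-KO cells and 3.25 tags in Wt cells, a 3.10-fold lower level (1.51 to 7.17) whose log2 ratio of -1.05 became -0.47 with TMM scaling. Csf2rb2, the neighbouring paralog that encodes an interleukin-3-specific beta chain in the mouse, had 8.86 tags in E2A-KO cells and 11.18 tags in Wt cells at its promoter. Reads that match both paralogs can be split between them by the authors' alignment, so the levels at both genes are uncertain to that extent.

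**Figure D1:**
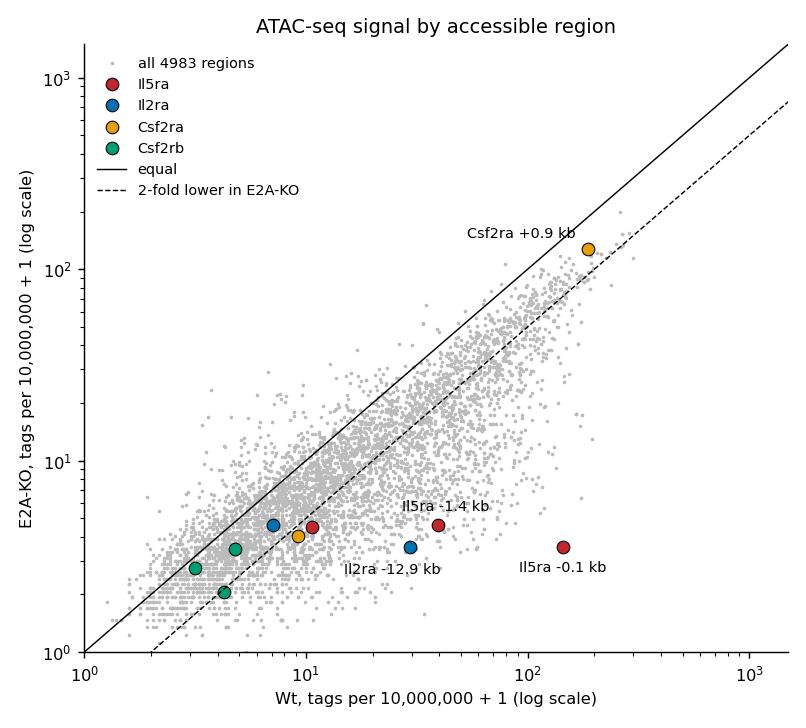
ATAC-seq tags per 10000000 plus 1 in E2A-KO cells (vertical, log scale) against Wt cells (horizontal, log scale) for 4983 accessible regions in grey, with the 10 regions of the 4 receptor genes in colour, the solid line marking equal values and the dashed line a 2-fold lower value in E2A-KO cells. The Il5ra promoter region, at 2.56 tags in E2A-KO cells and 143.58 in Wt cells, lies apart from the grey cloud, while the Csf2ra intron region lies near its upper end.

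Per kilobase, which allows levels of regions of unequal length to be set side by side, the order of the regions differed between the groups. In E2A-KO cells the Csf2ra intron region led with 101 tags per kb, followed by the Il2ra intron region with 11.2 tags per kb. All others were between 2.99 tags per kb (Il2ra 12.9 kb upstream) and 8.39 tags per kb (Il5ra 0.7 kb upstream), with the Il5ra promoter region at 3.86. In Wt cells the Il5ra promoter region led with 217 tags per kb, followed by the Csf2ra intron region with 149 and the Il5ra region 1.4 kb upstream with 55.1. The Il2ra region 12.9 kb upstream had 33.5 tags per kb in Wt cells, and the other 6 regions had 7.71 to 23.2.

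The authors' files class a region as open in Wt only or open in both Wt and Ebf1-KO cells. Both Il5ra promoter regions, the Il2ra region 12.9 kb upstream and the Csf2ra region 6.3 kb upstream were open in Wt only. The Il5ra region 1.4 kb upstream and the intron regions of Il2ra and Csf2ra were open in both, and the 3 Csf2rb regions stood in neither class. In E2A-KO cells, 72.2% of the 855 regions open in Wt only were at least 2-fold lower than in Wt cells, as were 40.6% of the 2909 regions open in both. All 4 member regions of the first class, and 1 of 3 of the second, were at least 2-fold lower. Within the 2397 regions outside promoters that were open in both, the Il5ra region 1.4 kb upstream had the 42nd lowest ratio.

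By likeness of the pair of E2A-KO and Wt log2 levels, the regions nearest to the Il5ra promoter region belonged to 1700027J07Rik, Ufm1, Alpl, Bcar3 and Col6a6. Their Euclidean distances over these 2 values were 0.73, 0.84, 0.88, 0.94 and 0.97 log2 units. The Alpl region, in intron 1 of the gene for tissue-nonspecific alkaline phosphatase, had 5.36 tags in E2A-KO cells and 172.06 tags in Wt cells.

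A list of 50 other cytokine receptor and JAK-STAT genes had 7 members with a region in the table. At the strongest region of each, 4 were at least 2-fold lower in E2A-KO cells and 0 were higher, or 2 lower with TMM scaling, beside 37.9% and 15.1% of all regions. Their median log2 ratio was -1.08, and -0.22 with TMM scaling. Socs3, a feedback inhibitor of cytokine signalling, had 57.25 tags in E2A-KO cells and 64.96 in Wt cells. Cish, another member of that inhibitor family, had 32.06 tags in E2A-KO cells and 49.10 in Wt cells. The Cish region is intergenic, at position 16448 from its start. Il15ra, the interleukin-15 receptor alpha gene next to Il2ra, had 16.44 tags in E2A-KO cells and 24.52 in Wt cells. With TMM scaling the log2 ratios of Socs3, Cish and Il15ra, all between -0.60 and -0.18, turned to between 0.28 and 0.71. Stat4, a transcription factor of interleukin-12 signalling, had 4.78 tags in E2A-KO cells and 23.21 in Wt cells. For Ifngr1, an interferon gamma receptor chain, the values were 2.56 in E2A-KO cells and 20.35 in Wt cells. That region is intergenic, at position -83446 from the Ifngr1 start. Il27ra, an interleukin-27 receptor chain, had 12.48 tags in E2A-KO cells and 27.44 in Wt cells.

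Of 11 pro-B markers, 10 had a region in the accessibility table. Their strongest regions summed to 102 tags in E2A-KO cells and 549 tags in Wt cells. Of the 10, 9 were at least 2-fold lower in E2A-KO cells, beside 37.9% of all regions. With TMM scaling 8 were, beside 15.1%. Of 10 myeloid markers, Lyz2 alone had a region, with 5.13 tags in E2A-KO cells and 7.41 in Wt cells. Of 4 natural killer markers, Klrb1c alone had one, with 35.68 tags in E2A-KO cells and 81.15 in Wt cells. No T-cell, erythroid or stromal marker had a region, which in a table restricted to Wt-enriched genes says nothing of those cells. In cultures of this kind, fewer cells of a type and less signal per cell cannot be told apart, and the part of cell composition in the differences was not tested. The tables hold no transcript levels, so the loss of E2A or Ebf1 itself was not checked.

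The second comparison asks which chromatin marks the receptor regions carry with and without Ebf1. Csf2rb has no region in these tables, which leaves 7 regions. H3K4me2, a mark of promoters and enhancers, was at least 2-fold lower in Ebf1-KO than in Wt cells at 5 of the 7, against 30.5% of all 3764 regions. H3K4me3, a mark of active promoters, was so at 4 of the 7, against 25.3%. H3K27ac, a mark of active enhancers and promoters read by CUT&RUN, was so at 6 of the 7, against 37.3%, and with TMM scaling at 4 of the 7, against 19.7%. PolII, RNA polymerase II, was so at 5 of the 7, against 40%. H3K27me3, the mark of Polycomb repression, was at least 2-fold higher in Ebf1-KO cells at 5 of the 7, against 16.6%. That count rests on low values, and was 1 (the Il5ra promoter region) with a pseudocount of 5 and 2 (with the Il5ra region 1.4 kb upstream) over regions with a value of at least 5. The median log2 ratio of all regions was -0.20 for H3K4me2, 0.03 for H3K4me3, -0.69 for H3K27ac, -0.68 for PolII and -0.04 for H3K27me3.

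At the Il5ra promoter region all 5 readouts differed between Ebf1-KO and Wt cells by more than counting error. H3K4me2 stood at 2.64 tags in Ebf1-KO cells and 25.02 in Wt cells, and H3K4me3 at 1.94 in Ebf1-KO cells and 14.35 in Wt cells. H3K27ac stood at 2.96 tags in Ebf1-KO cells and 52.53 in Wt cells, a 17.7-fold lower level (8.74 to 42.0). PolII stood at 3.76 tags in Ebf1-KO cells and 57.36 in Wt cells, a 15.2-fold lower level (8.28 to 31.2). H3K27me3 ran the other way, with 6.79 tags (5.08 to 8.90) in Ebf1-KO cells and 0.21 tags (0.02 to 0.92) in Wt cells, the Wt value resting on 1.5 tags. The resulting ratio of tags was 31.6-fold with an interval of 7.05 to 449.5-fold. On the log2(value + 1) scale the log2 ratio was 2.69. Adding 1 to such low values shrinks it to below that interval, which is on tags without a pseudocount.

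The Il5ra region 1.4 kb upstream is open in both Wt and Ebf1-KO cells, and its active marks were also lower in Ebf1-KO cells. H3K4me2 was 1.20 tags in Ebf1-KO cells and 48.83 tags in Wt cells, a 40.7-fold lower level (17.2 to 127). Its log2 ratio on the log2(value + 1) scale, -4.50, ranked 9th from the lowest among 3764 regions. H3K4me3 was 0.36 tags in Ebf1-KO cells and 17.49 in Wt cells. H3K27ac was 3.33 tags in Ebf1-KO cells and 38.28 in Wt cells, and PolII 4.45 in Ebf1-KO cells and 25.36 in Wt cells. H3K27me3 was 5.69 tags in Ebf1-KO cells and 0.50 tags in Wt cells, an 11.4-fold ratio (3.90 to 49.0). The small region 0.7 kb upstream followed the same direction in all 5 readouts, with H3K4me2 at 1.20 tags in Ebf1-KO cells and 16.28 in Wt cells and H3K27me3 at 1.81 in Ebf1-KO cells and 0.29 in Wt cells. The 3 Il5ra regions lie within a stretch of under 2 kb, so they share chromatin and are not independent readings.

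At the Il2ra region 12.9 kb upstream, H3K27ac was 3.52 tags in Ebf1-KO cells and 53.14 tags in Wt cells, a 15.1-fold lower level (7.84 to 33.0). H3K4me2 was 6.47 tags in Ebf1-KO cells and 35.71 in Wt cells. H3K4me3 was 4.79 tags in Ebf1-KO cells and 8.09 in Wt cells, a log2 ratio of -0.65 short of 2-fold. H3K27me3 was 2.98 tags in Ebf1-KO cells and 0.79 in Wt cells, a ratio of 3.78-fold (1.45 to 12.0). PolII was 4.10 tags in Ebf1-KO cells and 28.48 in Wt cells. The Il2ra intron region is 321 bp long, the shortest of the 7. Its H3K27ac was 2.59 tags in Ebf1-KO cells and 8.14 in Wt cells, or 8.07 tags per kb in Ebf1-KO cells and 25.4 in Wt cells. With TMM scaling that log2 ratio was -0.72, short of 2-fold. H3K4me2 ran the other way, with 1.20 tags in Ebf1-KO cells and 0.49 in Wt cells, resting on 5 and 2 tags. By library totals neither H3K4me3, 0.10 in Ebf1-KO cells and 1.17 in Wt cells, nor PolII, 2.39 and 5.07, was at least 2-fold lower. The interval of the PolII ratio included 1. H3K27me3 at the intron region was 2.07 tags in Ebf1-KO cells and 0.29 tags in Wt cells, the Wt value resting on 2 tags. Per kb, that H3K27me3 was 6.45 in Ebf1-KO cells and 0.90 in Wt cells, set beside 3.49 in Ebf1-KO cells and 0.92 in Wt cells at the upstream region.

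At the Csf2ra intron region no readout was at least 2-fold lower in Ebf1-KO than in Wt cells. H3K4me3 was 253 tags (246 to 260.4) in Ebf1-KO cells and 199 tags (189 to 209) in Wt cells, a ratio of 1.27-fold (1.20 to 1.35). H3K4me2 was 46.52 tags in Ebf1-KO cells and 47.86 in Wt cells, with a log2 ratio of -0.04 that became 0.12 with TMM scaling. H3K27ac was 29.43 tags in Ebf1-KO cells and 32.37 in Wt cells, with a log2 ratio of -0.13 that became 0.61 with TMM scaling. PolII was 30.10 tags in Ebf1-KO cells and 17.56 in Wt cells, a 1.71-fold higher level (1.18 to 2.51) that passed 2-fold only with TMM scaling, at a log2 ratio of 1.45. H3K27me3 rested on 2 tags in Ebf1-KO cells and 3 in Wt cells, too few for a ratio.

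The Csf2ra region 6.3 kb upstream, open in Wt only, had H3K4me2 at 0.96 tags in Ebf1-KO cells and 6.80 tags in Wt cells. H3K27ac there was 1.67 tags in Ebf1-KO cells and 6.52 in Wt cells, and PolII 1.03 in Ebf1-KO cells and 7.02 in Wt cells. H3K27me3 was 0.65 tags in Ebf1-KO cells and 0.72 in Wt cells, so the 5 regions counted as higher in Ebf1-KO cells with a pseudocount of 1 were those of Il5ra and Il2ra. The interval of that ratio, 0.21 to 3.92-fold, still holds a 2-fold difference in either direction.

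**Figure D2:**
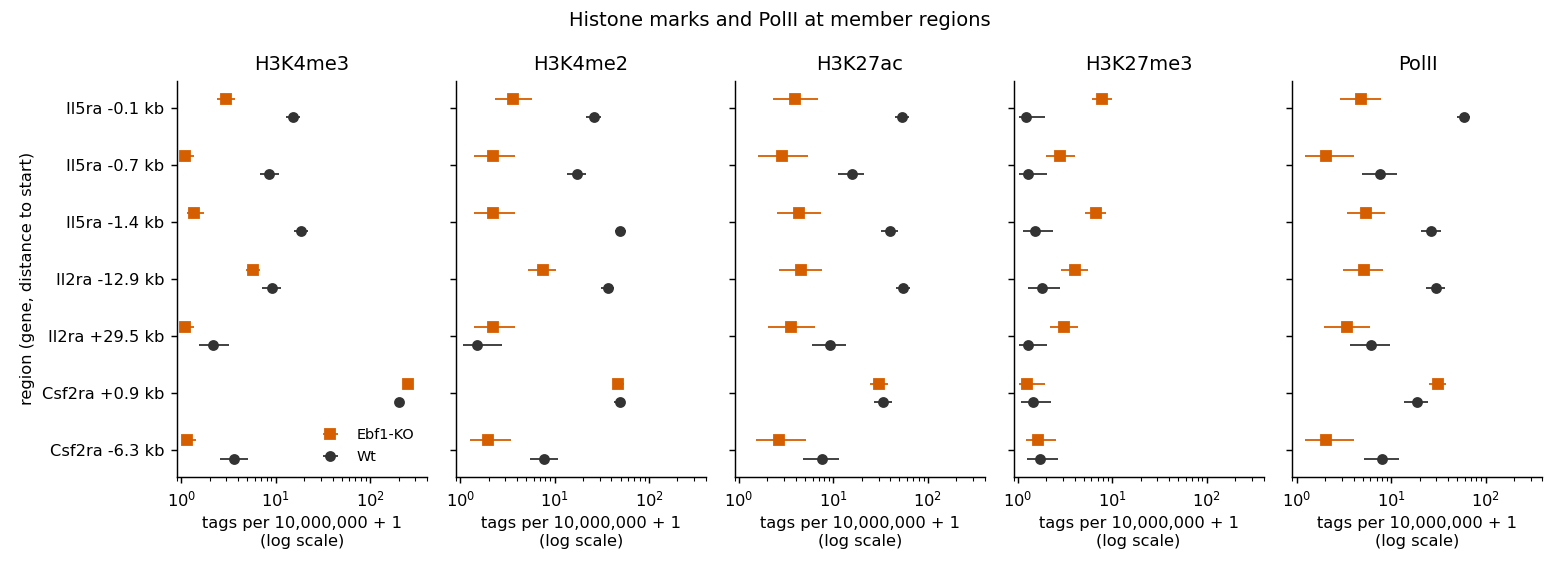
Tags per 10000000 plus 1 (horizontal, log scale) for 4 histone marks and PolII at 7 regions of Il5ra, Il2ra and Csf2ra, with Ebf1-KO cells as orange squares above Wt cells as black circles and bars as exact 95% counting intervals. At the 3 Il5ra regions the Ebf1-KO squares lie left of Wt for H3K4me3, H3K4me2, H3K27ac and PolII and right of Wt for H3K27me3, while at the Csf2ra intron region, with H3K4me3 at 253 tags in Ebf1-KO cells and 199 in Wt cells, the pairs lie close together.

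In the 50-gene cytokine list, 8 genes had a region in the histone tables. H3K27me3 was at least 2-fold higher in Ebf1-KO cells at 0 of their strongest regions and H3K27ac at least 2-fold lower at 0 of them, beside 16.6% and 37.3% of all regions. Only the strongest region of each gene was counted here, whereas every region of the receptor genes was counted above. H3K4me2 was at least 2-fold lower at 3 and higher at 2 of the 8, beside 30.5% and 7.44% of all regions. PolII was lower at 2 and higher at 1, beside 40% and 7.04%. With TMM scaling PolII was lower at 2 and higher at 5, beside 25.5% and 18.4%. Among pro-B markers, H3K4me2 was at least 2-fold lower in Ebf1-KO cells at 7 of 10 genes, beside 30.5% of all regions. The sums were 250.3 tags in Ebf1-KO cells and 466 tags in Wt cells. H3K27me3 was at least 2-fold higher at 2 of these 10 genes and lower at 1, beside 16.6% and 4.7% of all regions. The higher ones were Pax5, with 22.58 tags in Ebf1-KO cells and 0.50 in Wt cells, and Blnk, with 9.70 in Ebf1-KO cells and 2.22 in Wt cells.

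Ebf1-bound regions were read in more depth by the authors, and 3 of them belong to the receptor genes. The Il5ra promoter region and the Il2ra region 12.9 kb upstream carry both Ebf1 and Pax5 list names in those tables, and the Il5ra region 1.4 kb upstream carries the Ebf1 name. By the authors' naming, the Ebf1 ChIP behind the Ebf1-bound label is that of the Abelson-transformed line. No Ebf1 ChIP sample of fetal liver cells is labelled, so Ebf1 binding in the Wt cells was not read here. BRG1, the ATPase of the BAF chromatin remodelling complex, and PolII were at least 2-fold lower in Ebf1-KO than in Wt cells at all 3, against 32.4% and 53% of the 1172 Ebf1-bound regions. The PolII values are the same ones given above with the histone marks and are no second reading. EP300, an acetyltransferase that writes H3K27ac, was so at 3 of 3, against 36.9%, and at 1 of 3 with TMM scaling, against 26.5%. The median log2 ratio of all 1172 regions was -0.29 for BRG1, -0.56 for EP300 and -1.10 for PolII.

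BRG1 at the Il5ra promoter region was 2.73 tags in Ebf1-KO cells and 16.27 tags in Wt cells, a 5.97-fold lower level (3.31 to 11.7). At the Il5ra region 1.4 kb upstream it was 2.52 tags in Ebf1-KO cells and 17.79 in Wt cells, and at the Il2ra region 6.50 in Ebf1-KO cells and 20.62 in Wt cells. Per kb, the 2 Il5ra regions had 24.5 and 25.5 tags of BRG1 in Wt cells.

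The 3 regions differed more in EP300, for which the doubtful Wt antibody label applies. EP300 at the Il5ra promoter region was 1.57 tags in Ebf1-KO cells and 33.10 tags in Wt cells, a 21.1-fold lower level (11.1 to 45.0). At the Il2ra region it was 7.83 tags in Ebf1-KO cells and 18.50 in Wt cells. At the Il5ra region 1.4 kb upstream it was 0.78 tags in Ebf1-KO cells and 3.41 in Wt cells. Per kb, EP300 in Wt cells was 49.9 tags at the Il5ra promoter region and 4.89 tags 1.4 kb upstream of the start, unlike the even BRG1 levels of these 2 regions. PolII in Wt cells was 86.5 tags per kb at the promoter region and 36.4 tags per kb 1.4 kb upstream.

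The third comparison asks how accessibility differs with the time of Ebf1ER activation in Ebf1-KO cells. Values follow at 0, 6, 24 and 72 h of 4OHT. The Il5ra promoter region had 5.50, 6.05, 3.28 and 3.17 tags. The Il5ra region 1.4 kb upstream had 6.77, 4.03, 5.46 and 2.02 tags. The Il2ra region 12.9 kb upstream had 0.42, 3.46, 4.10 and 1.15 tags, the first of which rests on 2 tags. No Il5ra region was at least 2-fold above 0 h at any of the 3 later times, whereas the Il2ra region was so at 6 h and 24 h. Both Il2ra calls were lost with a pseudocount of 5 and left out by a filter at 5, since all 4 values are below 5.

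Over all 1172 regions, 5.97% were at least 2-fold above 0 h at 6 h, 16.1% at 24 h and 18.2% at 72 h, and the median log2 ratio was 0.26, 0.47 and 0.50. The Il2ra ratio was 8.18-fold (1.82 to 75.2) at 6 h and 9.69-fold (2.25 to 87.3) at 24 h. At 72 h it was 2.73-fold with an interval of 0.39 to 30.1, which includes no difference. At the Il5ra promoter region the intervals of all 3 ratios included 1, with 1.10-fold (0.59 to 2.03) at 6 h, 0.60-fold (0.27 to 1.22) at 24 h and 0.58-fold (0.26 to 1.21) at 72 h. With TMM scaling its log2 ratio turned to -0.13 at 6 h, where it was 0.12, and passed 2-fold lower at 24 h and 72 h, with -1.01 and -1.08. The Il5ra region 1.4 kb upstream was 3.36-fold lower (1.45 to 9.01) at 72 h. By its log2 ratio on the log2(value + 1) scale, -1.36, it was the 2nd lowest of the 1172 regions, of which 0.597% were at least 2-fold lower. With a pseudocount of 5 it did not reach 2-fold. Each value at these regions rests on 2 to 32 tags. The 3 comparisons share the 0 h column, and the library totals given for 6 h and 72 h, 34710011 and 34710016 tags, are nearly the same number.

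Pro-B markers were also read in the same tables. At 72 h, 5 of 8 measured genes were at least 2-fold above 0 h at their strongest region, beside 18.2% of all 1172 regions. With TMM scaling 3 of 8 were, beside 7.51%. The strongest regions of the 8 summed to 132 tags at 72 h and 42.1 tags at 0 h. Of the cytokine list, 6 genes were measured, and 0 were at least 2-fold above or below 0 h at any time by library totals. Among all regions, 5.97% to 18.2% were at least 2-fold above 0 h and 0.597% to 0.853% below, depending on the time.

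**Figure D3:**
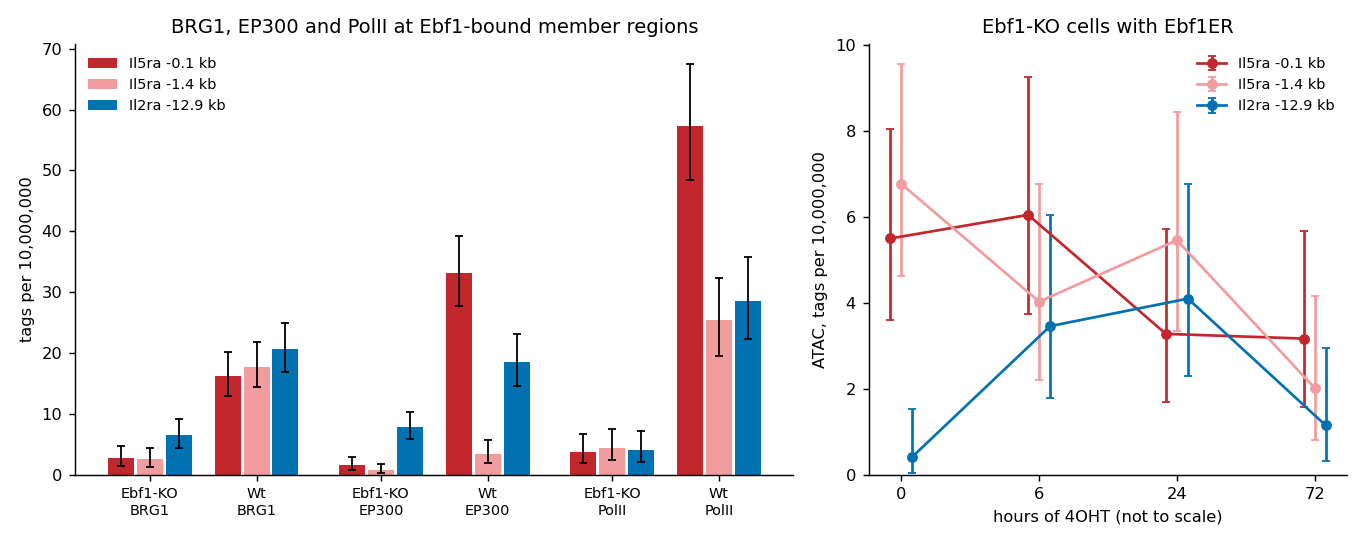
Left, tags per 10000000 for BRG1, EP300 and PolII at 3 Ebf1-bound regions, Ebf1-KO left of Wt within each pair; right, ATAC-seq tags per 10000000 at the same regions in Ebf1-KO cells with Ebf1ER at 0, 6, 24 and 72 h of 4OHT, evenly spaced. Bars are exact 95% counting intervals, and the intervals of the Il5ra promoter region at the 4 times overlap, while the Il2ra value of 0.42 tags at 0 h lies below its values at 6 h and 24 h.

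The peak lists give Fli1, an ETS factor, and IKZF1, the zinc finger factor Ikaros, in Wt cells, each from 1 sample, with a score that is the authors' own and is used here only within its list. The median score was 16.7 for Fli1 and 7.05 for IKZF1. At Il5ra 8 Fli1 peaks were listed, a number that 1.94% of the 13033 genes with a Fli1 peak reached. One of them spans the start, at chr6:106748857-106749209 with a score of 26.2, and overlaps both the printed window and an IKZF1 peak at chr6:106749116-106749300 with a score of 5.49. The highest Fli1 score at this gene, 30.5, was at a peak in intron 10, 31.6 kb inside the gene. A second IKZF1 peak, chr6:106750378-106750562 with a score of 7.05, lay in the region 1.4 kb upstream, where no Fli1 peak was listed. The 2 Fli1 peaks most distant among those named Il5ra, 84.9 and 122 kb from its start, lie in introns of another transcript, NM_173004.

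At Il2ra the list held 5 Fli1 and 6 IKZF1 peaks, and 0.339% of the 4127 genes with an IKZF1 peak had as many. Fli1 and IKZF1 peaks overlapped at 4 places of the gene. The highest of both lay in the Ebf1-bound region 12.9 kb upstream, with a Fli1 score of 44.3 at chr2:11629719-11630071, ranking 1107th of 27261, and an IKZF1 score of 9.80 at chr2:11629729-11629913, ranking 858th of 5741. The other shared places lay 6.5 and 5.6 kb upstream and 10.8 kb inside intron 1. The Il2ra promoter region of 230-238 cells overlapped neither a Fli1 nor an IKZF1 peak.

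Csf2ra had 3 Fli1 peaks and 0 IKZF1 peaks. The one inside its intron 1 region, chr19:61226962-61227314, had a score of 51.5 and ranked 570th of 27261, the highest Fli1 score at any of the 4 genes. The list annotates that peak to exon 3 of NM_009970. Csf2rb had 2 Fli1 peaks and 1 IKZF1 peak. The Fli1 peak over its start, chr15:78325868-78326220 with a score of 22.4, overlapped the IKZF1 peak at chr15:78326162-78326346 with a score of 7.05. None of the 3 Csf2rb accessible regions of the fetal liver table overlapped a peak of either factor.

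In 230-238 cells the names of the genes stood on 8 accessible regions for Il5ra, 16 for Il2ra, 5 for Csf2ra and 3 for Csf2rb, where the median gene with any region has 2. As many as 16 were found at 2.17% of 16039 genes. The 10 regions read in fetal liver cells are 10 of these 32 and no second set of calls, so their presence in both tables is no agreement between the cell sources. The other 22, among them the Il2ra promoter region, chr2:11642294-11643011, were not in the fetal liver accessibility table. Of the 16 Il2ra regions, 10 lie in intron 1 and 5 upstream of the promoter. One Il5ra region, 85.1 kb from its start, lies in an intron of NM_001109749 and bears the Il5ra name as the nearest start.

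**Figure D4:**
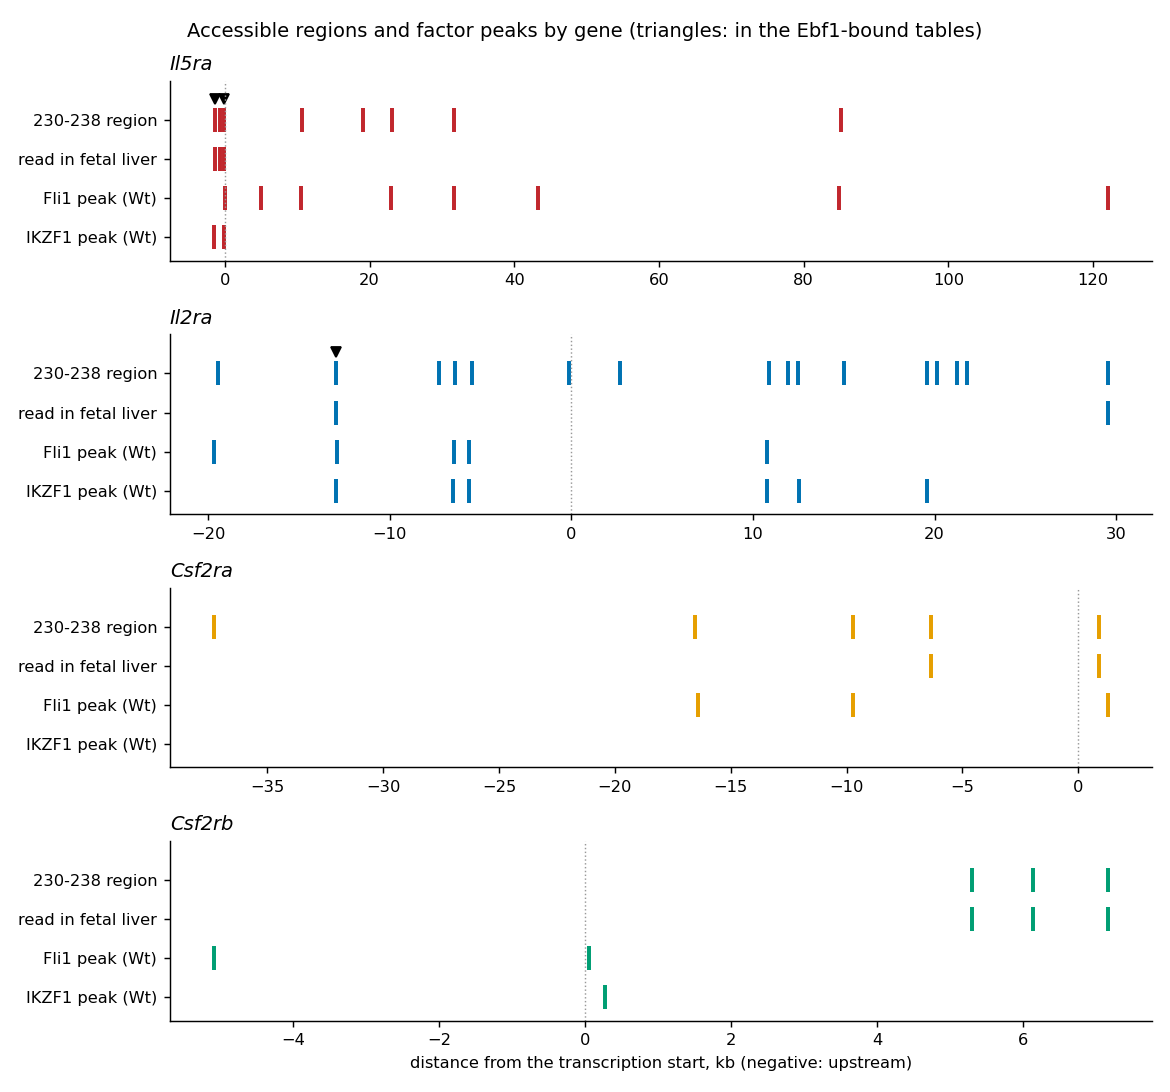
Positions of accessible regions of 230-238 cells, of the 10 among them that were read in fetal liver cells, and of Fli1 and IKZF1 peaks in Wt cells, as the distance of each centre from the transcription start in kb, with negative values upstream, for each of the 4 genes. Triangles mark the 3 regions that stand in the Ebf1-bound tables, and the map shows the 4 places of Il2ra where Fli1 and IKZF1 peaks coincide and the absence of IKZF1 peaks at Csf2ra.

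PLAC-seq in 230-238 cells gives pairs of 5 kb bins with a contact count and a q-value by the authors, all below 0.05 here. An interaction was assigned to a gene when 1 of its bins overlapped an accessible region bearing that gene's name. Il5ra had 7 interactions, Il2ra 16, Csf2ra 18 and Csf2rb 0. The median interaction of the whole list has 16 contacts over 130 kb. Since contacts in such assays become rarer with distance, counts are given with their distance.

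At Il2ra 4 interactions had both ends on the gene's own regions, as did 1 at Il5ra and 0 at Csf2ra. The bin with the region 12.9 kb upstream met the bin with the 3 regions 5.5 to 7.3 kb upstream in 82 contacts over 10 kb (q = 9.16e-07). The next bin, which that upstream region also overlaps, met the bin with 4 intron 1 regions, 19.6 to 21.8 kb inside the gene, in 68 contacts over 30 kb (q = 0.0161). The same bin met the bin of the Il15ra promoter in 36 contacts over 75 kb (q = 7.57e-07), and the bin of the Il2ra region 29.5 kb inside the gene met it in 40 contacts over 35 kb (q = 0.000894). The Ankrd16 promoter was met from the region 19.5 kb upstream in 21 contacts over 155 kb (q = 2.33e-05).

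The bin of the Il2ra promoter itself had a single interaction, of 12 contacts over 310 kb (q = 0.0293), with chr2:11330001-11335000, where 3 accessible regions are named for Gm13293. That same distant bin was also met by the bins of the regions 12.9 kb upstream, 19.6 to 21.8 kb inside and 29.5 kb inside the gene, in 11, 15 and 11 contacts. The longest Il2ra interaction spanned 1710 kb with 7 contacts (q = 0.0246) and had no accessible region at its other end.

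At Il5ra the bin with both promoter regions had 1 interaction, of 16 contacts over 50 kb (q = 0.00664), with an accessible region named Crbn. The adjacent bin, with the region 1.4 kb upstream, had 4. One was with the Il5ra region 10.6 kb inside the gene, in 29 contacts over 15 kb (q = 0.0265), and one with a region named Trnt1 in 34 contacts over 10 kb (q = 0.0398). No interaction of Il5ra had an accessible promoter of another gene in its other bin.

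At Csf2ra 10 of the 18 interactions came from the region 37.3 kb upstream and 2 from the intron 1 region. They were longer, with a median of 408 kb, than those of Il2ra, with a median of 115 kb, and Il5ra, with a median of 50.0 kb, and had fewer contacts, with a median of 11.5, against 20.5 at Il2ra and 18.0 at Il5ra. The smallest q, 1.21e-08, belonged to 16 contacts over 430 kb with a bin holding regions named Sfxn4. The one other promoter met was that of Zfp950, in 15 contacts over 125 kb (q = 0.00823). The 3 regions named Csf2rb had no interaction, although the same file lists contacts of an unnamed region at its start.

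**Figure D5:**
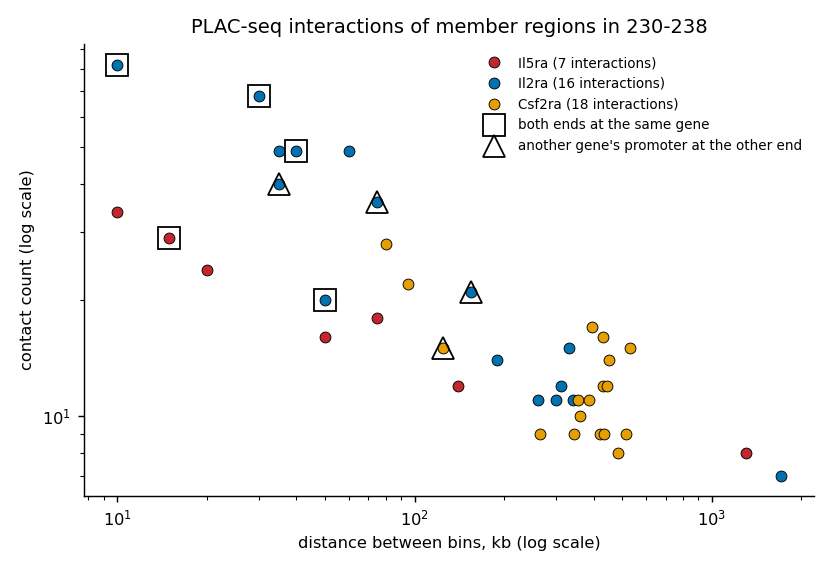
Contact count (vertical, log scale) against the distance between bins in kb (horizontal, log scale) for the 41 PLAC-seq interactions with an end on an accessible region of Il5ra, Il2ra or Csf2ra in 230-238 cells. Squares mark interactions with both ends at the same gene and triangles those with the promoter of another gene at the other end, and the 18 Csf2ra interactions, at 80.0 to 530 kb, lie mostly to the right of those of Il5ra and Il2ra.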

How the data were processed

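Per the submitters' processing notes, reads were handled with Trim Galore 0.6.4, Bowtie2 2.3.5, SAMtools 1.9, Picard, HOMER 4.10, deepTools 3.3.1, MACS2 and, for PLAC-seq, HiC-Pro 2.11.1, on mm10 (GRCm38.p5); which tool made which file is not stated there. Per the file headers, the region tables hold signal, the tags in a region scaled by the authors to 10000000 tags of the library and not divided by length. The deposited Wt ATAC column is named with a size set to 180, unlike the others, and the name does not say which size is meant. The authors deposited PLAC-seq contact counts with p-values and q-values per pair of bins, a score per Fli1 and IKZF1 peak, and other columns such as the distance to the nearest start. The column names of the accessibility table include 2 columns for groups with no labelled sample, which were not used.

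Tags were recovered from value and library total: 100% of values were whole within 0.1 tag, in steps of 0.5 tag for H3K27me3 and H3K27ac. A count test could not be fitted with 1 column per group, so ratios were given with exact conditional intervals, and a call means at least 2-fold on the log2(value + 1) scale. Intervals are at 95%, and 3 tags or fewer in both groups gave no ratio. TMM factors came from edgeR 4.0.16 in R 4.3.3, the rest from Python 3.11.15 with numpy 2.4.6, pandas 2.3.3, SciPy 1.17.1 and matplotlib 3.10.9. The ratios were tried on tags simulated with counting error only, which checks the code and cannot show variation between libraries. Alternatives were TMM scaling, pseudocounts of 0.5 and 5, a filter at a scaled value of 5, a q of 0.01, anchors at the region nearest the start, overlaps of at least 50% and scores at or above the list median. The genes named are the receptor genes, Csf2rb2, up to 6 of the cytokine list by mean level, 5 regions nearest to the Il5ra promoter region in level, and genes at the other ends of interactions. Members and lists were chosen with earlier results of these data known. Input, IgG and the Fli1 and IKZF1 samples of Ebf1-KO cells were not analysed here, and the labels do not tell whether replicate samples are from separate fetuses.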

Additional observations from a re-analysis of the deposited data

How the results depend on the processing

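No paired analysis was possible because every group is a single column, and for the same reason no replicate could be left out. With TMM scaling, 3 of the 10 regions in place of 6 were at least 2-fold lower in E2A-KO than in Wt cells, beside 15.1% of all regions. EP300 was so in Ebf1-KO cells at 1 region in place of 3, beside 26.5%. PolII was at least 2-fold higher in Ebf1-KO cells at 1 of 7 regions in place of 0, near the share of all regions, 18.4%. At 24 h 1 region and at 72 h 2 of 3 were at least 2-fold below 0 h in place of 0 and 1, beside 2.3% and 2.65%. H3K27ac was then lower in Ebf1-KO cells at 4 regions in place of 6, beside 19.7%, and H3K4me3 at 5 in place of 4, beside 26.6%. With a pseudocount of 5, the counts became 3 for E2A-KO, 1 for H3K27me3 higher, 3 for PolII lower, 1 for EP300 lower, and 0 for regions above 0 h at 6 h and at 24 h and below 0 h at 72 h. The counts of lower H3K27ac, H3K4me2 and H3K4me3 also fell with that pseudocount. Over regions whose scaled value reached 5 in one group, H3K27me3 was higher at 2 in place of 5, and 0 regions were above 0 h at 6 h and at 24 h. Fewer regions were then counted as lower for E2A-KO, H3K4me3 and EP300. This filter acts on the scaled value and not on recovered tags. The higher H3K27me3 regions it left out rest on 14, 23 and 16 tags in Ebf1-KO cells and on 2, 5.5 and 2 tags in Wt cells. Of 63 log2 ratios, 3 lay outside their counting interval with a pseudocount of 0.5, 27 with TMM scaling and 36 with a pseudocount of 5. The filter left 48 ratios, of which 3 lay outside. The interval is on tags without a pseudocount, so some ratios lay outside it already with the pseudocount of 1. Among these was H3K4me3 at the Il5ra regions 0.7 and 1.4 kb upstream, so the counts do not all show a change of setting. The 63 hold PolII at the Ebf1-bound receptor regions in both of its comparisons. None of those past 2-fold changed sign. With a q of 0.01, Il5ra had 3 interactions and Il2ra 8. From the region nearest the start alone, Il5ra had 1, Il2ra 1 and Csf2ra 2, and with the unnamed promoter region, an alternative chosen after seeing the data, Csf2rb had 10. At or above the median score of the list, Fli1 peaks numbered 4 at Il5ra, 1 at Csf2ra and 1 at Csf2rb, and IKZF1 peaks 1 at Il5ra. The cause of these shifts was not tested. Depth limits the values resting on 5 tags or fewer, which were 8 of 14 for H3K27me3, 5 of 14 for H3K4me2, 3 of 14 for H3K4me3, 2 of 14 each for H3K27ac and PolII, 1 of 6 for EP300 and 2 of 12 in the 4OHT series.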

Other observations

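The 230-238 accessible region over the Csf2rb start, chr15:78325343-78326397, carries no gene name in its table but is annotated as the promoter of NM_007780, the transcript that the Fli1 list pairs with the name Csf2rb. It was examined after its absence from the named regions was seen. It overlapped 1 Fli1 and 1 IKZF1 peak and its bin had 10 PLAC-seq interactions, with 9 to 89 contacts over 25.0 to 485 kb. The strongest, of 89 contacts over 25.0 kb (q = 4.34e-23), was with a bin holding accessible regions named Csf2rb2, and the next, of 64 contacts over 80.0 kb (q = 2.28e-25), with a bin holding a region named Ncf4, the gene of a subunit of the phagocyte NADPH oxidase. None of the 10 had an accessible promoter at its other end.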
